A study of Mus musculus with 6 samples.

Results

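The genes described are transcription factors and soluble marker proteins by which bipolar cells of the retina are recognised: Vsx1, Isl1, Bhlhe23, Prdm8, Prkca, Cabp5, Scgn, Car8 and Otor. They lie outside the Grm6 cascade, the signalling chain with which ON bipolar cells respond to light. Every probe whose only gene symbol in the array annotation was one of these 9 genes was taken, which gave 15 of the 45281 probes on the array and covered 8 of the 9 genes. No probe carried the symbol Cabp5, a calcium-binding protein of rod bipolar and some cone bipolar cells, so Cabp5 was not analysed here.

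RNA of the central retina was compared between rd1/rd1 mice of 8 months (3 samples) and rd1/rd1 mice of 2 months (3 samples) on Illumina bead arrays, to ask what changes late in the degeneration. All 6 samples carry the rd1 mutation of Pde6b, the beta subunit of the rod phosphodiesterase, under which rods and then cones die, so the comparison is of ages within the mutant and holds no wild-type retina. Mice were untreated. Each sample pooled 3 to 6 punches of 1.5 mm, and the labels give neither the number of animals in a pool nor the background strain, so p-values measure the spread between these 6 pools.

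Bipolar cells carry the signals of photoreceptors to amacrine and ganglion cells. Rod bipolar cells take input from rods, cone bipolar cells from cones, and cone bipolar cells divide into ON and OFF types. In rd1 retinas the bipolar cells lose their photoreceptor input and withdraw their dendrites, which is why their identity genes are of interest at late ages. In bulk tissue, fewer cells of a type and less RNA per cell cannot be told apart.

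Values are on the deposited log2 scale, where each array had a median of 7.19, and a level near that median is close to background. A probe passed the filter if it lay above the median of its array in 3 or more of the 6 samples. This held for 11 of the 15 probes and for 7 genes. The other 4, both probes of Car8 and 2 of the 3 probes of Prdm8, stayed at 7.06 to 7.20 and give no measure of their genes here. The tissue held bipolar RNA at both ages: Grm6, the glutamate receptor of ON bipolar cells, averaged 12.41 ± 0.0557 at 8 months and 12.47 ± 0.0628 at 2 months. Otx2, a transcription factor of bipolar cells and photoreceptors and so less specific, averaged 11.62 ± 0.131 at 8 months and 11.71 ± 0.126 at 2 months (SD, n = 3 each). Its highest sample was 2 month replicate 2, as for the pigment epithelium genes, and their part in the Otx2 value was not tested.

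The samples were not alike in what else they held. Cone genes were lower at 8 months, and the mean levels of haemoglobin, pigment epithelium and muscle genes were also lower at 8 months, with 2 month replicate 2 the highest sample for all of these 3 tissues. The Y-linked gene Eif2s3y reached 7.79 and 8.27 in 2 month replicates 1 and 2 and lay at 7.10 to 7.18 in the other 4 samples, so the sexes were not balanced between the ages. Fits without single samples bear on the part of any 1 sample, but they leave the sexes unbalanced. The fit without both samples of Y-linked signal leaves 1 sample at 2 months, so it cannot decide on these differences. The part of these differences in the results was not tested otherwise.

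The start regions of the genes with the smallest p-values are shown because Otx2, measured above, belongs to the homeodomain proteins that bind TAATCC. The 250 bases before the gene start are given 5′ to 3′ on the strand of the gene, from RefSeq sequences of build GRCm38.p6, with any TAATCC or its reverse GGATTA in capitals. They lie on the minus strand at chr13:116309689-116309938 (Isl1), chr11:108343889-108344138 (Prkca) and chr13:23991215-23991464 (Scgn).
Isl1: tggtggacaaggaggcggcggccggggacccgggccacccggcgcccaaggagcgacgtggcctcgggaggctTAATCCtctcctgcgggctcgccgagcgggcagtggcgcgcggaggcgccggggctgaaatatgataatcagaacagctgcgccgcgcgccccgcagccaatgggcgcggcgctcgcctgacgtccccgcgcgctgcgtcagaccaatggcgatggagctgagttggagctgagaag
Prkca: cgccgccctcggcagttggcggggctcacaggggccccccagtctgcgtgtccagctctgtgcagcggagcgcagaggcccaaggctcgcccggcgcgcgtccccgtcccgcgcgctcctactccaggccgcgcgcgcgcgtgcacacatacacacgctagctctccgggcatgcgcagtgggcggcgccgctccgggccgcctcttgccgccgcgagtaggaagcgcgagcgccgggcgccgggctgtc
Scgn: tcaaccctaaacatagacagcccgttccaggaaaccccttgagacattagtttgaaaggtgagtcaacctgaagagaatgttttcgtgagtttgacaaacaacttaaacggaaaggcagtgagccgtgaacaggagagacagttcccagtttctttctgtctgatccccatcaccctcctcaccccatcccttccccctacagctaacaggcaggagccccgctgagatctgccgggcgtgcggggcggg
The Isl1 window held 1 TAATCC, and the windows of Prkca and Scgn held neither word. Of the 8 genes with a sequence in the table, the other with a match was Cabp5, with 2. Over all 32851 start regions of that length in the table, 6.25% held TAATCC or GGATTA on either strand. The share of G and C was 71.2% for Isl1, 76.8% for Prkca and 53.2% for Scgn. A match is a description of the letters in this window, not a measured binding site.

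No probe of these genes passed the test over all probes. In the whole comparison limma called 11 of 22458 probes, or 0.049%, at an adjusted p below 0.05 (0.0356% higher and 0.0134% lower at 8 months), and 0 of the 11 kept bipolar identity probes were among them. At an unadjusted p below 0.05 there were 3 of 11, against 9.06% of all kept probes: 1 higher at 8 months, for Scgn, and 2 lower, for Prkca and Isl1 (4.62% and 4.44% of all kept probes). Without 8 month replicate 3, and likewise without 2 month replicate 2, 0 of the 11 were higher and 0 lower at this p (limma). The ages did not overlap for 1 of 11, Prkca probe ILMN_1256967, which was lower at 8 months, against 13.7% of all kept probes (7.08% higher and 6.61% lower). The 11 changes, always 8 months minus 2 months, ran from −0.21 to 0.27 with a median of 0.02, where the median of all kept probes was 0.002. The sign of the members' median was not stable: it was −0.045 with 1 probe per gene and −0.046 without 2 month replicate 1. Of the 11 changes 6 were positive, and 51.3% of all kept probes were. With so few probes, 3 of them from Scgn alone, these shares describe the genes and separate them from nothing.

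**Figure D1:**
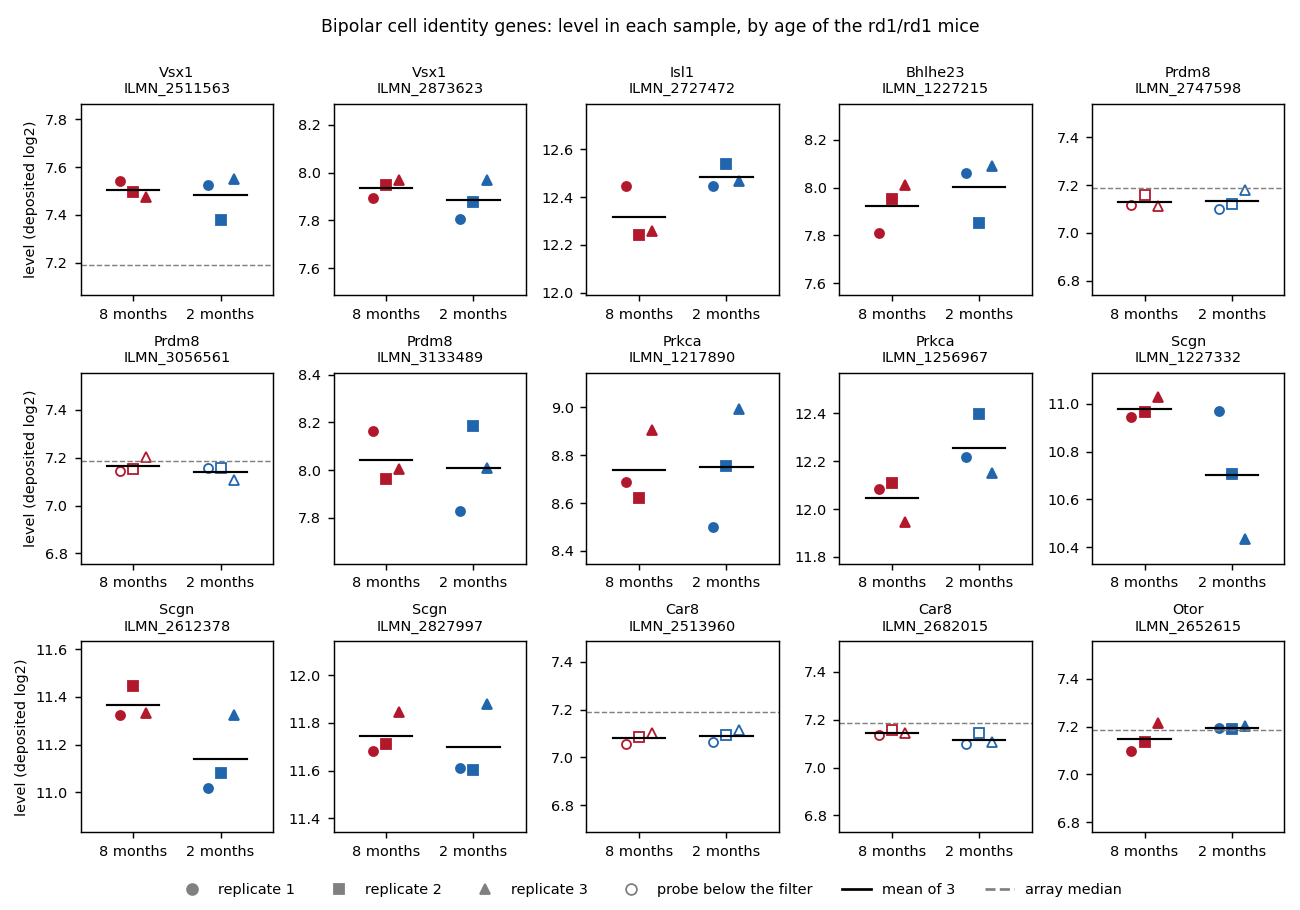
Level of each of the 15 probes in each sample on the deposited log2 scale, with 8 month samples left of 2 month samples, marker shape giving the replicate, bars the mean of 3 and dashes the array median of 7.19. Every panel spans the same range of log2 units. Prkca probe ILMN_1256967 is the one kept probe whose ages do not overlap, and Car8 lies below the array median in every sample.

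Among the transcription factors, Isl1 had the largest change. Isl1 is a LIM homeodomain protein of ON bipolar cells that ganglion cells and cholinergic amacrine cells also make. Its single probe (ILMN_2727472) read 12.45, 12.24 and 12.26 in 8 month replicates 1, 2 and 3 and 12.45, 12.54 and 12.47 in 2 month replicates 1, 2 and 3. Replicate 1 of 8 months stood level with the lowest 2 month sample, and 8 month replicates 2 and 3 lay below all of 2 months. The change was −0.17 (SE 0.0654, 95% interval −0.32 to −0.01), or 0.89-fold, with an unadjusted p of 0.0358 and an adjusted p of 0.495 (limma). Without 8 month replicate 1 it was −0.23 (limma adjusted p = 0.396), and without 8 month replicate 2 it was −0.13 (limma adjusted p = 0.692).

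Markers of the other cells that make Isl1 were measured as well. Chat, the enzyme that makes acetylcholine, averaged 9.76 ± 0.102 at 8 months and 9.59 ± 0.101 at 2 months (SD, n = 3 each). Pou4f1, a transcription factor of ganglion cells, averaged 10.30 ± 0.137 at 8 months and 10.13 ± 0.0929 at 2 months. Over the 8 kept ganglion cell genes the mean level of the samples ran from 10.57 to 10.89 at 8 months and from 10.62 to 10.68 at 2 months, and 0 of their 16 kept probes were called (limma), with 1 higher and 0 lower at an unadjusted p below 0.05. Over the 6 cholinergic genes it ran from 8.70 to 8.80 at 8 months and from 8.71 to 8.74 at 2 months, with 0 of 9 called and 2 higher and 0 lower at an unadjusted p below 0.05 (limma). Chat differed in sign from most of this list, in which 5 of 9 changes were negative and the median was −0.03. Of all kept probes 4.62% were higher and 4.44% lower at an unadjusted p below 0.05 (limma). The part of ganglion and cholinergic cells in the Isl1 value was not tested.

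Vsx1, a paired-type homeodomain protein needed for the late differentiation of cone bipolar cells, had both probes above the array median in all 6 samples, but at low levels. Probe ILMN_2873623 read 7.89, 7.95 and 7.97 at 8 months and 7.81, 7.88 and 7.97 at 2 months. Probe ILMN_2511563 read 7.54, 7.50 and 7.48 at 8 months and 7.53, 7.38 and 7.55 at 2 months. The ages overlapped at both. The changes were 0.05 (SE 0.0547, 95% interval −0.08 to 0.18) and 0.02 (SE 0.0575, 95% interval −0.11 to 0.16), the larger of their adjusted p-values being 0.961 (limma). Leaving out 1 sample gave 0.013 (2 month replicate 1) to 0.096 (2 month replicate 3) for ILMN_2873623. On this scale the intervals span 0.949-fold to 1.13-fold and 0.924-fold to 1.11-fold. Changes of dim probes were small in general. From the 5th to the 95th percentile they ran from −0.10 to 0.09 around a level of 7.35 and from −0.14 to 0.15 around 7.72. Around a level of 9.24 they ran from −0.22 to 0.24. The narrow intervals of Vsx1 thus do not show that its RNA was unchanged.

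Bhlhe23, a basic helix-loop-helix protein required for rod bipolar cells to mature and survive in mice, read 7.81, 7.95 and 8.01 at 8 months and 8.06, 7.85 and 8.09 at 2 months. The lowest sample was of 8 months and the highest of 2 months, with the others interleaved. The change was −0.08 (SE 0.0808, 95% interval −0.27 to 0.11, limma adjusted p = 0.872). Leaving out 1 sample gave −0.020 (8 month replicate 1) to −0.15 (2 month replicate 2). These levels were low as well, but the SE was larger than those of Vsx1. The spread of all kept probes around 7.72, −0.14 to 0.15, lay between those around 7.35 and 9.24. The limit given for Vsx1 thus holds only in part for Bhlhe23.

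Prdm8, a zinc finger protein of the PRDM family on which rod bipolar and some OFF cone bipolar cells of mice depend, was measured by 1 of its 3 probes. That probe (ILMN_3133489) read 8.17, 7.96 and 8.00 at 8 months and 7.83, 8.19 and 8.01 at 2 months. The 2 month samples held both the lowest and the highest value. The change was 0.04 (SE 0.0972, 95% interval −0.19 to 0.26, limma adjusted p = 0.959).

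Prkca codes for protein kinase C alpha, the protein by which rod bipolar cells are most often stained. Probe ILMN_1256967 read 12.09, 12.11 and 11.95 at 8 months and 12.22, 12.40 and 12.15 at 2 months. All 8 month samples lay below all 2 month samples, with 8 month replicate 3 the lowest of the 6. The change was −0.21 (SE 0.0764, 95% interval −0.39 to −0.03), or 0.865-fold, with an unadjusted p of 0.0282 and an adjusted p of 0.458 (limma). Of all kept probes 6.16% had a smaller p. Without 2 month replicate 2, the sample richest in blood, muscle and pigment RNA, the change was −0.14 (limma adjusted p = 0.697). Without 8 month replicate 3 it was −0.16 (limma adjusted p = 0.75). Leaving out any other sample gave −0.23 (2 month replicate 1) to −0.26 (2 month replicate 3).

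The second Prkca probe, ILMN_1217890, behaved otherwise. It read 8.69, 8.62 and 8.90 at 8 months and 8.50, 8.76 and 8.99 at 2 months. The ages overlapped, and at both ages replicate 3, the lowest sample at the first probe, was the highest here. The change was −0.01 (SE 0.129, 95% interval −0.32 to 0.29, limma adjusted p = 0.992). Its interval holds the change of the other probe, so the probes were not shown to differ. The annotation gives a RefSeq transcript for ILMN_1217890 and none for ILMN_1256967, and which transcripts each probe detects is not given in the sources used here.

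**Figure D2:**
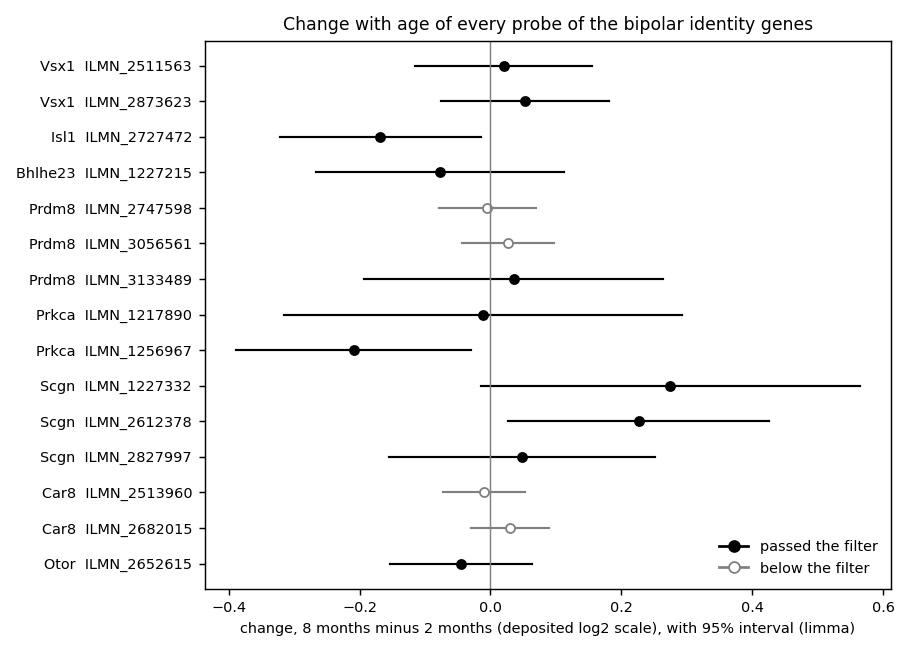
Change of each of the 15 probes in deposited log2 units, 8 months minus 2 months, with the unadjusted 95% interval of limma. Filled points passed the filter. The intervals of Isl1, Prkca ILMN_1256967 and Scgn ILMN_2612378 do not hold 0, and no probe passed the test after adjustment over 22458 probes.

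Scgn codes for secretagogin, a calcium sensor with EF-hands that marks many cone bipolar cells in the mouse, and it was read by 3 probes. Probe ILMN_2612378 read 11.32, 11.45 and 11.33 at 8 months and 11.02, 11.08 and 11.33 at 2 months. The low samples were 2 month replicates 1 and 2, while replicate 3 reached the level of 8 months. The change was 0.23 (SE 0.0850, 95% interval 0.03 to 0.43), or 1.17-fold, with an unadjusted p of 0.0315 and an adjusted p of 0.472 (limma).

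Probe ILMN_1227332 of Scgn read 10.94, 10.97 and 11.03 at 8 months and 10.97, 10.71 and 10.44 at 2 months. Here 2 month replicate 3 was the lowest sample and replicate 1 stood with the 8 month samples. The change was 0.27 (SE 0.123, 95% interval −0.01 to 0.56, limma adjusted p = 0.582). Leaving out 2 month replicate 3 gave 0.14 (limma adjusted p = 0.646), and leaving out 2 month replicate 1 gave 0.41 (limma adjusted p = 0.329).

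Probe ILMN_2827997 of Scgn read 11.68, 11.71 and 11.85 at 8 months and 11.61, 11.60 and 11.88 at 2 months. Replicate 3 was the highest sample of its age at both ages, and the ages overlapped. The change was 0.05 (SE 0.0865, 95% interval −0.16 to 0.25, limma adjusted p = 0.938). All 3 Scgn probes thus had positive changes, but they placed 2 month replicate 3 differently, as the lowest 2 month sample at ILMN_1227332 and the highest at the others. When 2 month replicate 3 alone stood for its age, a setting chosen after seeing the data, the changes were 0.04, 0.54 and −0.13 in the order of the probes above. These values rest on 1 sample at 2 months and restate where that sample lies.

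Car8, a relative of the carbonic anhydrases that lacks their enzyme activity and has been found in rod bipolar cells, stayed at 7.06 to 7.16 over both probes and all 6 samples, below the array median. Otor codes for otoraplin, a small secreted protein known from the inner ear. It read 7.10, 7.14 and 7.22 at 8 months and 7.19, 7.19 and 7.20 at 2 months, above the array median in 4 of 6 samples, and its change of −0.04 (SE 0.0460, limma adjusted p = 0.867) was measured at background. Leaving out 1 sample gave −0.020 (8 month replicate 1) to −0.078 (8 month replicate 3). Neither age can be said to hold more or less of these RNAs from these arrays.

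**Figure D3:**
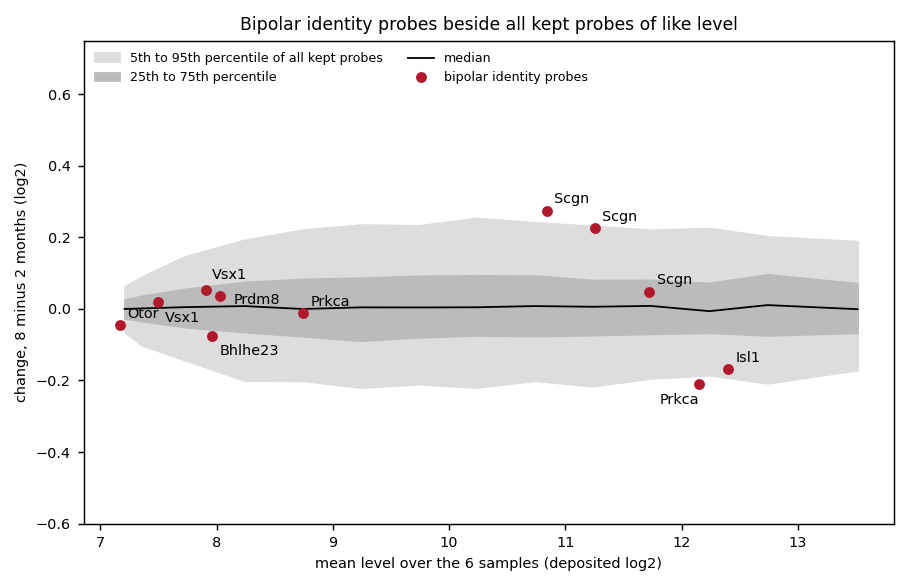
Change of the 11 kept bipolar identity probes, 8 months minus 2 months, against their mean level over the 6 samples, both in log2 units, with the percentile bands of all 22458 kept probes of like level. Scgn ILMN_1227332 and Prkca ILMN_1256967 lie just outside the band from the 5th to the 95th percentile. Otor lies left of the lowest level at which the band is drawn, and the other probes lie inside it.

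Other genes of bipolar cells, in lists of further transcription factors, of the Grm6 cascade and of markers of bipolar subtypes, gave 0 calls as well (limma). At an unadjusted p below 0.05 there were 2 lower and 0 higher among the factors and 1 lower and 0 higher in the cascade. The shares of all kept probes were 4.44% lower and 4.62% higher (limma). Of 15 kept probes of the transcription factors 7 had positive changes, and the list had a median of −0.02. Sebox, a homeodomain protein of rod bipolar cells, read 8.55, 8.66 and 8.39 at 8 months and 8.82, 8.68 and 9.00 at 2 months. The ages did not overlap, and the change was −0.30 (SE 0.0978, limma adjusted p = 0.397). Irx6, an Iroquois homeodomain protein of some cone bipolar cells, had a change of −0.14 (SE 0.0510, limma adjusted p = 0.464), and Otx2 one of −0.08 (SE 0.0870).

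Of 17 kept probes of the Grm6 cascade 7 had positive changes, with a median of −0.04. Rgs9bp, which anchors regulators of G protein signalling to the membrane in photoreceptors and ON bipolar cells, had a change of −0.30 (SE 0.0625, limma adjusted p = 0.194) at its brighter probe and −0.10 (SE 0.0690, limma adjusted p = 0.746), with overlapping ages, at the other. Rgs11, a regulator that speeds the turning off of the cascade in ON bipolar cells, had one of −0.15 (SE 0.0802). The channel Trpm1, which the cascade closes, had one of −0.09 (SE 0.0757) at its brightest probe and 0.06 at both other kept probes, and Grm6 one of −0.07 (SE 0.0525).

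Markers of bipolar subtypes had mostly positive changes. Of their 26 kept probes 24 had positive changes, the median was 0.04, and 4 were higher and 0 lower at an unadjusted p below 0.05, against 4.62% and 4.44% of all kept probes. Tacr3, the neurokinin receptor of some OFF cone bipolar cells, read 9.27, 9.24 and 9.13 at 8 months and 9.05, 9.11 and 9.01 at 2 months. Its ages did not overlap at this probe, and the change was 0.16 (SE 0.0538, limma adjusted p = 0.405). They overlapped at its other kept probe, with a change of 0.05. Htr3a, a serotonin-gated channel of some ON cone bipolar cells, had a change of 0.18 (SE 0.0589, limma adjusted p = 0.404). Probes of a gene and genes of a cell type vary together, so 24 of 26 is no test. Changes were also positive for 13 of 16 kept ganglion cell probes. They were positive for 13 of 22 amacrine probes other than the cholinergic ones and for 4 of 9 cholinergic probes. The part of such cells in the values of these markers was not tested.

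**Figure D4:**
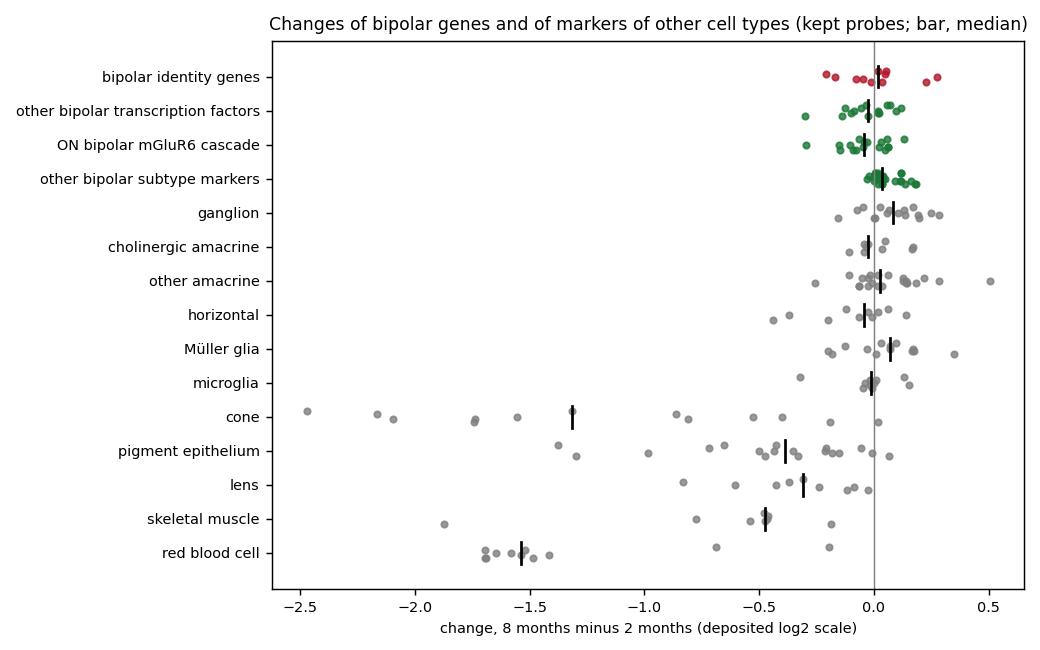
Changes of the kept probes of each list in deposited log2 units, 8 months minus 2 months, with the bipolar identity genes in red, other bipolar lists in green, lists of other cell types in grey and bars at the medians. Bipolar medians lie between −0.04 and 0.04, while the cone median is −1.31 and the red blood cell median −1.54.

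Some lists of other cell types differed more between the ages. The mean level of the 7 kept bipolar identity genes, each by its brightest probe, was 9.60, 9.58 and 9.61 at 8 months and 9.60, 9.66 and 9.68 at 2 months. For the 10 cone genes it ran from 8.00 to 8.67 at 8 months and from 9.38 to 9.81 at 2 months, and 3 of 13 kept probes were called lower (limma), among them both of Arr3, the cone arrestin. Without 8 month replicate 2 no probe of the whole comparison was called lower (940 were lower at an unadjusted p below 0.05, limma), so the cone calls were lost, and without 2 month replicate 1 a single probe was. For the 12 pigment epithelium genes it ran from 8.83 to 9.34 at 8 months and from 9.29 to 9.93 at 2 months, with 17 of 18 kept probes negative. For the 3 red blood cell genes it ran from 9.53 to 9.61 at 8 months and from 10.68 to 12.10 at 2 months, with 11 of 11 negative, and for the 7 muscle genes from 7.91 to 8.09 at 8 months and from 7.96 to 9.47 at 2 months. No probe of these last 3 lists was called (limma). At an unadjusted p below 0.05, 2 of 18, 10 of 11 and 1 of 8 kept probes were lower and 0 higher. The muscle probe was that of Pvalb, parvalbumin. Of all kept probes 4.44% were lower and 4.62% higher at this p (limma).

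Over the 6 samples, the genes whose level most resembled the mean level of the bipolar identity genes were Cyhr1, Shkbp1 and Dhrs11, out of 19184 kept named probes. Their Pearson r was 0.987, 0.987 and 0.982. Shkbp1 read 7.30 to 7.42 and Dhrs11 7.31 to 7.52, both close to the array median of 7.19, and Cyhr1 8.17 to 8.39. With 6 samples drawn from 2 ages, and a mean that varied little, this is a description of these arrays.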

How the data were processed

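RNA of 6 pools was column-purified with DNase treatment and turned into biotinylated cRNA for Illumina arrays, per the labels' protocols. The deposited table holds 1 value for each of 45281 probes in each of 6 samples. The deposited values are read as log2 from their range of 6.98 to 14.48, and a variance-stabilising transform, which compresses changes of dim genes, cannot be told apart from it. The authors' columns agree within 0.00307 at every rank, as a quantile-type normalization leaves them. The labels do not state which software or background correction made them.

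Ages and replicate numbers came from the sample titles. The descriptions number the 2 month samples otherwise. Probes were named through GEO's annotation of the platform, which can be old: 34885 probes had 1 symbol, 18 several and 10378 none. The gene numbers of all 15 probes described matched RefSeq genes of GRCm38.p6. After the filter on dim probes, at the 50th percentile on 3 arrays, all 22458 remaining probes entered a limma fit (version 3.58.1, R 4.3.3, lmFit and eBayes) of 8 months minus 2 months, two-sided, adjusted after Benjamini-Hochberg at 0.05. Residual degrees of freedom were 4, and the prior added 3.20. Standard errors are limma's moderated ones, and 95% intervals are not adjusted. Probes below the filter have changes from a fit with no filter. The fit was tested on simulated data. The precision is limited by the number of arrays, 3 per age, and by signal over background.

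The genes, lists and tests were chosen with earlier results of these data known. Named were all probes of the 9 genes, the anchor genes of cell types, the 2 genes of a list with the smallest p at the brightest kept probe of each gene, and the 3 genes most like the mean level. Values of anchors and lists that add nothing to the genes described are not printed.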

Additional observations from a re-analysis of the deposited data

How the results depend on the processing

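None of the 11 kept bipolar identity probes was called under any of 15 other settings. In a further fit, without the samples of Y-linked signal, 2 months is a lone sample assumed to vary like the 8 month samples, so its 0 calls carry no weight. Of 170 changes computed for these probes under all 16 settings, 159 kept their direction and 11 reversed. Many of the 170 could not reverse. Changing the filter, the number of probes per gene, the prior or the replicate block leaves the change itself as it was. Repeating the quantile normalization or centring on the median hardly moves it, since the columns already agree at every rank. These counts are thus no measure of stability. Isl1, Prkca ILMN_1256967, Bhlhe23, Otor, Scgn ILMN_1227332 and Scgn ILMN_2612378 kept their direction in all settings in which they were fitted. The reversed changes lay between −0.01 and 0.05 in the report: Prkca ILMN_1217890 was at 0.031 with array weights, and with the 2 samples of Y-linked signal left out, added after seeing the data, Vsx1 was at −0.046 (ILMN_2511563) and −0.033 (ILMN_2873623) and Scgn ILMN_2827997 at −0.13. Leaving out 1 sample gave −0.033 to 0.054 for Vsx1 ILMN_2511563, −0.054 to 0.12 for Prdm8 ILMN_3133489, −0.14 to 0.11 for Prkca ILMN_1217890 and −0.0015 to 0.14 for Scgn ILMN_2827997.

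The median of the kept probes was 0.02, and it was −0.045 with 1 probe per gene, −0.051 without the samples of Y-linked signal, and −0.046 (without 2 month replicate 1) to 0.054 (without 2 month replicate 3) with 1 sample left out. Over all probes the 8 calls higher and 3 lower became 48 and 47 with a filter at the 75th percentile, 19 and 8 with 1 probe per gene and 67 and 74 with a trended, robust prior. With no filter the lower count was 5, and without the samples of Y-linked signal the higher count was 4. With 1 sample left out they ran from 3 (2 month replicate 1) to 13 (2 month replicate 3) higher, with 4 without 8 month replicate 1 and 5 without 2 month replicate 2, and from 0 (8 month replicate 2) to 27 (2 month replicate 3) lower, with 1 without 2 month replicate 1 and 9 without 2 month replicate 2. At 0 lower there were 940 lower probes with an unadjusted p below 0.05 (limma). The causes were not tested.

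With the replicate number as a block, a replicate block that changed no call of these genes, 12 probes were called higher and 13 lower. The deviations of same-numbered samples correlated at 0.0537, 0.128 and 0.157, and every sample correlated best with its own number, a hint from the data only, since the labels tie nothing to the numbers. Signal over background limits Car8, Otor, Vsx1, Bhlhe23 and Prdm8, and the 3 samples per age limit all intervals.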

Other observations

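Relatives of the marker proteins were measured in the same fit, and none of them was called over all probes (limma). In the protein kinase C family, counted with Prkca itself, 3 kept probes were higher and 2 lower at an unadjusted p below 0.05, out of 13. The lower ones were Prkca ILMN_1256967, already described, and Prkcq. Of all kept probes 4.62% were higher and 4.44% lower at this p (limma). Prkcq, the theta isoform, read 8.03, 8.07 and 8.03 at 8 months and 8.19, 8.38 and 8.27 at 2 months, with no overlap and a change of −0.24 (SE 0.0566, limma adjusted p = 0.247). Prkcb, the beta isoform, which the retina also makes in cone bipolar and amacrine cells, had changes of 0.40, 0.23 and 0.07 at its 3 kept probes (limma adjusted p = 0.372, 0.397 and 0.864). Among the amacrine cell genes other than the cholinergic ones, 6 of 22 kept probes were higher and 1 lower at an unadjusted p below 0.05, with a change of 0.51 (SE 0.0952, limma adjusted p = 0.157) for Gad2, an enzyme that makes GABA, and their part in the Prkcb values was not tested. The difference between Prkcb and Prkca was not tested.

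Of all kept probes 4.62% were higher and 4.44% lower at an unadjusted p below 0.05 (limma). Among EF-hand proteins related to Scgn and Cabp5, 2 of 13 kept probes were higher and 2 lower at this p. Both of the higher ones were of Calm2, a calmodulin gene, with changes of 0.35 (SE 0.117, limma adjusted p = 0.405) at probe ILMN_2856697, where 2 month replicate 1 stood close to the 8 month samples, and 0.32 (SE 0.0596, limma adjusted p = 0.157) at probe ILMN_2775885. The remaining Calm2 probe, ILMN_2451115, had a change of −0.11 (SE 0.0542), so the probes of this gene disagreed. The lower ones were of Cabp4, a calcium-binding protein of photoreceptor synapses, and Pvalb. Cabp4 had a change of −0.18 (SE 0.0438, limma adjusted p = 0.25) at the dimmer of its kept probes, which read 7.07 to 7.32 over the 6 samples, close to background. Pvalb, parvalbumin, had one of −0.19 (SE 0.0777, limma adjusted p = 0.539). Pvalb is itself 1 of the 8 kept probes on the list of muscle genes. All 8 had negative changes, and that of Pvalb was the smallest. Pvalb was highest in 2 month replicate 3 (11.71), the 2 month sample with the lowest mean of the muscle list (7.96). The part of muscle RNA in the Pvalb value was not tested. Of 19 kept probes of the carbonic anhydrases, the enzymes to which Car8 is related, 1 was lower and 0 higher at an unadjusted p below 0.05. This was Car14, a membrane-bound enzyme of Müller glia and pigment epithelium, which read 11.37, 11.48 and 11.19 at 8 months and 11.56, 11.62 and 11.60 at 2 months, a change of −0.24 (SE 0.0747, limma adjusted p = 0.366). Pigment epithelium genes were lower at 8 months as well, with a median change of −0.39, and their part in the Car14 value was not tested.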
